A study of Homo sapiens with 6 samples.

Results

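The nuclear genes for the subunits of mitochondrial complex I are described here across 4 chromatin immunoprecipitation (ChIP-seq) libraries of human prostate cancer cells. Members are the protein-coding genes of the RefSeq table on assembly GRCh38.p14 whose symbol starts with NDUFA, NDUFB, NDUFC, NDUFS or NDUFV followed by a number, with NDUFAB1 added and the NDUFAF assembly factors left out. This gave 38 of the 20037 protein-coding genes on chromosomes 1 to 22, X and Y, and 1 of them, NDUFC2-KCTD14, is a readthrough gene that contains NDUFC2. The choice used symbols only and no measured value. The study used LNCaP, an androgen-responsive prostate adenocarcinoma line, and MR49F, an enzalutamide-resistant line derived from LNCaP. Enzalutamide is an androgen receptor inhibitor. MR49F was cultured with 10 µM of it, whereas the labels give none for LNCaP, so the line and the drug in its medium cannot be told apart. Cells of both lines were fixed with 2 mM disuccinimidyl glutarate for 45 min and 1% formaldehyde for 10 min, sonicated for 10 min, and precipitated with 4 µg of antibody to BRG1 or SMARCC2. Each line and antibody is represented by 1 library without replicate, so the lines are compared by counts and values without a test, and the 2 inputs were not analysed here.

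Complex I, NADH:ubiquinone oxidoreductase, passes electrons from NADH to ubiquinone and pumps protons across the inner mitochondrial membrane. Its N module oxidises NADH, its Q module reduces ubiquinone, and its membrane arm, with a proximal and a distal part, pumps protons. The core membrane subunits are encoded by mitochondrial DNA, whereas the core subunits of the N and Q modules and all accessory subunits are encoded in the nucleus. BRG1 is an ATPase of the nucleosome-moving SWI/SNF complex, and SMARCC2 is a scaffold subunit of the same complex. A peak is a stretch of genome where the authors' peak caller found more precipitated fragments than local background at a q-value of 0.01 or less. A gene without a peak did not reach that threshold, which does not show that the protein was absent.

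The BRG1 lists held 36174 peaks in LNCaP and 44308 in MR49F, and the SMARCC2 lists 25706 and 47615. Solving each peak's fold enrichment and p-value for the fragments stacked at its summit gave a median of 26 to 28 fragments in every list, over a median local background of 4.14 to 5.34. The weakest peaks rested on 13 and 14 fragments in the LNCaP lists and on 10 in both MR49F lists, so the same stack could pass in MR49F and fail in LNCaP. Median −log10 q-values were 6.77 and 9.47 with BRG1 and 6.95 and 10.8 with SMARCC2, LNCaP first. Of the marker genes, the 8 luminal prostate genes all had BRG1 peaks in both lines, and KLK3 alone lacked a peak in the LNCaP SMARCC2 list. The basal keratin genes KRT5 and KRT14 and the leukocyte gene PTPRC had no peak in any list, whereas basal TP63, fibroblast PDGFRA and T-cell CD3E had peaks in all 4.

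Promoter sequence is shown for 5 members, chosen after their values were seen as examples of peaks that overlapped the 250 bases upstream of the start site, by at least 1 bp, in only part of the lists. None of these stretches lies inside another gene. NDUFA13, NDUFB1, NDUFB2, NDUFB11 and NDUFC2-KCTD14 meet the same conditions and are not printed. They are RefSeq sequences on GRCh38.p14, written 5′ to 3′ on the gene's strand and ending at the base before the start site. Capitals mark a match to a searched motif: the GC box GGGCGG on either strand, the NRF1 core GCGCATGCG (reverse complement CGCATGCGC) or the cAMP response element TGACGTCA. The NDUFV2 stretch, chr18:9102449-9102698 on the plus strand, lay under a peak in both MR49F lists and in neither LNCaP list. The NDUFS4 stretch, chr5:53560389-53560638 on the plus strand, lay under a LNCaP BRG1 peak alone, as did those of NDUFB3, chr2:201071751-201072000 on the plus strand, and NDUFS7, chr19:1383657-1383906 on the plus strand. The NDUFA10 stretch, chr2:240025343-240025592 on the minus strand, lay under an MR49F BRG1 peak alone.
NDUFV2: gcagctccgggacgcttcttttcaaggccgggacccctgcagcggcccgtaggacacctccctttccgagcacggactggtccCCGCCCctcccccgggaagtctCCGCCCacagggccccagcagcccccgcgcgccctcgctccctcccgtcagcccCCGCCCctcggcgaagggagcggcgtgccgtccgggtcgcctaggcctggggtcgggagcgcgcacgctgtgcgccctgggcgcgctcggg
NDUFS4: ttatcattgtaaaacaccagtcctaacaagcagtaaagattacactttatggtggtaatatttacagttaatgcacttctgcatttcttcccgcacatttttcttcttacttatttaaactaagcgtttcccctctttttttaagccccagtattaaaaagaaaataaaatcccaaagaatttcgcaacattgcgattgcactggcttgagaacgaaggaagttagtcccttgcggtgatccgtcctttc
NDUFB3: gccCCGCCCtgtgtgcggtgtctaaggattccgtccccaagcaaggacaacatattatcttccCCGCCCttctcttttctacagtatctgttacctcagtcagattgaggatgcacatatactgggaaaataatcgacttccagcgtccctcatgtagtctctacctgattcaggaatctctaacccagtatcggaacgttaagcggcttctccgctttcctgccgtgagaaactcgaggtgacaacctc
NDUFS7: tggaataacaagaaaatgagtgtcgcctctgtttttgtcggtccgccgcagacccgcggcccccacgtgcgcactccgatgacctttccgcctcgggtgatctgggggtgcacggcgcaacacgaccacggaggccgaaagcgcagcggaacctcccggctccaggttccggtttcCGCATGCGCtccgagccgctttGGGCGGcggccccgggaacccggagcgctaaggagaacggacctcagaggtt
NDUFA10: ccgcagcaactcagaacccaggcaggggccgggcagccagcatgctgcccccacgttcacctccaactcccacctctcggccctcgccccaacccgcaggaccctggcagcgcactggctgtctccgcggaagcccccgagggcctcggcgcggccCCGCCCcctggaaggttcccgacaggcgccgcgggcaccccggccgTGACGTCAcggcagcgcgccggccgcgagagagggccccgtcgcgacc
The NDUFV2 stretch holds 3 GC boxes and the NDUFB3 stretch 2. NDUFS7 has an NRF1 core and a GC box, NDUFA10 has a GC box and a cAMP response element, and the printed NDUFS4 stretch has no match to any motif searched. The 300 bases around the start site were 74.7% G and C at NDUFV2 and 74.3% at NDUFA10, and 40.3% at NDUFS4.

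A summit within the gene span extended by 2 kb was found for 22 of 38 members in the LNCaP BRG1 list (57.9%), against 56.1% of all protein-coding genes. In the LNCaP SMARCC2 list, 13 members had one (34.2%, against 44.1%). In MR49F, 25 members had a BRG1 peak (65.8%, against 66.3%) and 24 had a SMARCC2 peak (63.2%, against 64%). In 3 of the 4 lists the share of complex I genes was therefore within 2 percentage points of the share of all genes, and the LNCaP SMARCC2 share was the lower one. Member genes are short, with a median span of 12268 bp against 24115 bp for all genes. The part of span length in these shares was not tested, and the genes of complexes II to V, with a shorter median span of 7973 bp, had a LNCaP SMARCC2 peak in 44.4%.

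Complex I genes were seldom called in all 4 lists: 7 members (18.4%) were, against 38.6% of all genes. These were NDUFA7, NDUFB1, NDUFC1, NDUFC2-KCTD14, NDUFS1, NDUFS5 and NDUFS6. Their share was below that of all genes under each of the 6 other settings tried, among them spans without extension (10.5% against 32.4%), spans extended by 10 kb (36.8% against 45.6%) and summits within 2 kb of a gene end (15.8% against 24.3%). A further 12 members were called in 3 lists, 6 in 2 and 8 in 1. Of the 12, NDUFA1, NDUFA13, NDUFB2, NDUFB6, NDUFB11, NDUFS7 and NDUFV3 lacked a peak in the LNCaP SMARCC2 list only. No peak in any list was found at NDUFA3, NDUFA6, NDUFB5, NDUFB7 and NDUFB8, which is 5 members (13.2%), against 26.9% of all genes. These 5 encode accessory subunits: NDUFA6 is an N module protein that binds acyl carrier protein, NDUFA3 belongs to the proximal membrane arm, and the NDUFB proteins belong to the distal membrane arm.

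**Figure D1:**
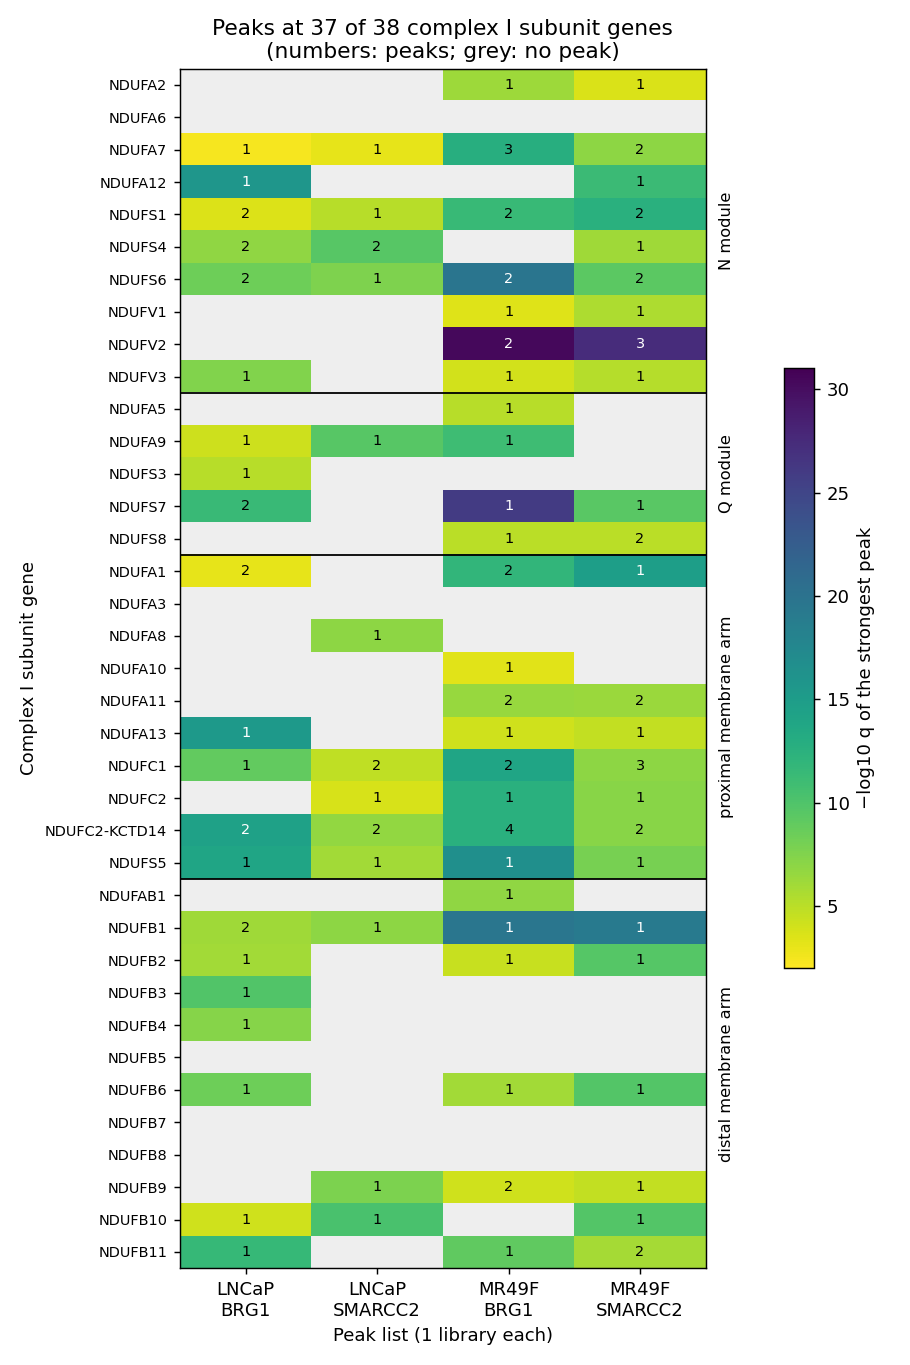
Each row is a complex I subunit gene (37 of the 38 are drawn), grouped by module, and each column is 1 peak list; the number is the count of peaks with a summit in the span extended by 2 kb, the colour is the −log10 q-value of the strongest, and grey means no peak. NDUFV2 reached 30.3 and 27.4 in the MR49F lists with no LNCaP peak, and 5 genes were grey throughout.

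Between the lines, 5 members (13.2%) had peaks with both antibodies in MR49F and with neither in LNCaP, against 9.52% of all genes. They were NDUFV1, NDUFV2, NDUFS8, NDUFA2 and NDUFA11. The reverse pattern was seen at 0 members, against 0.908% of all genes. With NDUFA7 and NDUFC1 added, 7 members (18.4%) had a higher peak count in MR49F with BRG1 and also with SMARCC2, against 25% of all genes. The opposite held for NDUFS4 alone (2.63%), against 3.47% of all genes. The MR49F lists were the longer ones, and the difference between lines at complex I genes thus went the way it went for genes at large, at shares close to those of all genes.

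The 7 core subunits of the N and Q modules bind flavin, iron-sulfur clusters or ubiquinone, and 3 of their genes, NDUFV1, NDUFV2 and NDUFS8, were called in MR49F alone with both antibodies. NDUFV2, at chr18:9102699-9134341, encodes the subunit with the first iron-sulfur cluster next to the flavin site. It had no peak in either LNCaP list, 2 in MR49F BRG1 and 3 in MR49F SMARCC2. The MR49F BRG1 summit 2064 bp downstream of the start site had a fold enrichment of 8.94 and a −log10 q-value of 30.3, from 50 fragments (95% Poisson interval 37.1 to 65.9) over a background of 4.71. The SMARCC2 summit 2049 bp downstream had a fold of 8.71 and a −log10 q-value of 27.4, from 45 fragments (32.8 to 60.2) over 4.28. These were the strongest complex I peaks of both MR49F lists, at percentiles 90.7 and 83.8 of their lists. A weaker BRG1 summit lay 671 bp upstream (fold 3.56, −log10 q-value 8.65), and the SMARCC2 peak with the summit at 2049 bp extended back over the start site. A SMARCC2 summit at 30694 bp had a −log10 q-value of 7.62, and another at 33478 bp, 604 bp from an end of ANKRD12, had 2.68. Local background was the median at peak summits in a 10 Mb window centred on the gene, as a ratio to the list's own autosomal median. At NDUFV2 this background stood higher in MR49F, 1.33 times the LNCaP value for BRG1 and 1.31 times for SMARCC2. Its part in the difference was not tested.

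NDUFV1, at chr11:67606936-67612554, encodes the subunit that holds the flavin and oxidises NADH. It had no LNCaP peak, a BRG1 summit 405 bp downstream of the start in MR49F (fold 3.16, −log10 q-value 3.39, 16 fragments) and a SMARCC2 summit at 231 bp (fold 3.81, −log10 q-value 5.62, 20 fragments). NDUFS8, at chr11:68030681-68036644, encodes a Q module subunit with a pair of iron-sulfur clusters. It had no LNCaP peak, an MR49F BRG1 summit 411 bp upstream (fold 3.29, −log10 q-value 5.04) and SMARCC2 summits 471 bp upstream (3.31 and 4.72) and 636 bp downstream (3.12 and 5.0). Both genes thus passed in MR49F with weak peaks, and the MR49F to LNCaP ratio of local background there was 0.972 with BRG1 and 1.09 or 1.07 with SMARCC2. With each list reduced to its 10000 strongest peaks, NDUFV2 was the only member left with peaks of both antibodies in MR49F and none in LNCaP, while NDUFB1 and NDUFS6 kept a BRG1 peak in MR49F alone.

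The other core genes did not share this pattern. NDUFS1, the largest subunit of the N module, carries several iron-sulfur clusters and was called in all 4 lists. Its strongest −log10 q-values were 3.58 with BRG1 and 5.07 with SMARCC2 in LNCaP, and 11.5 and 12.6 in MR49F. Its summits lay on either side of the start site, from 769 bp upstream to 532 bp downstream, and an end of EEF1B2 lies close by. NDUFS3, a Q module subunit, was called in the LNCaP BRG1 list only, with 1 summit 330 bp downstream of its start (fold 3.8, −log10 q-value 5.16). NDUFS7, which carries the iron-sulfur cluster that hands electrons to ubiquinone, had 2 LNCaP BRG1 peaks, no LNCaP SMARCC2 peak, and 1 peak in each MR49F list. Near its far end, 11666 to 11866 bp from the start, the summits had folds of 4.01 in LNCaP BRG1, 8.28 in MR49F BRG1 and 5.05 in MR49F SMARCC2. Their −log10 q-values were 11.3, 26.0 and 9.47. The LNCaP and the MR49F BRG1 summit each rested on 45 fragments, over backgrounds of 10.1 and 4.56. The part of either value in the larger MR49F fold was not tested. The LNCaP BRG1 list had its other NDUFS7 summit 618 bp upstream of the start (fold 2.53, −log10 q-value 2.90), and this peak overlaps the printed stretch.

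**Figure D2:**
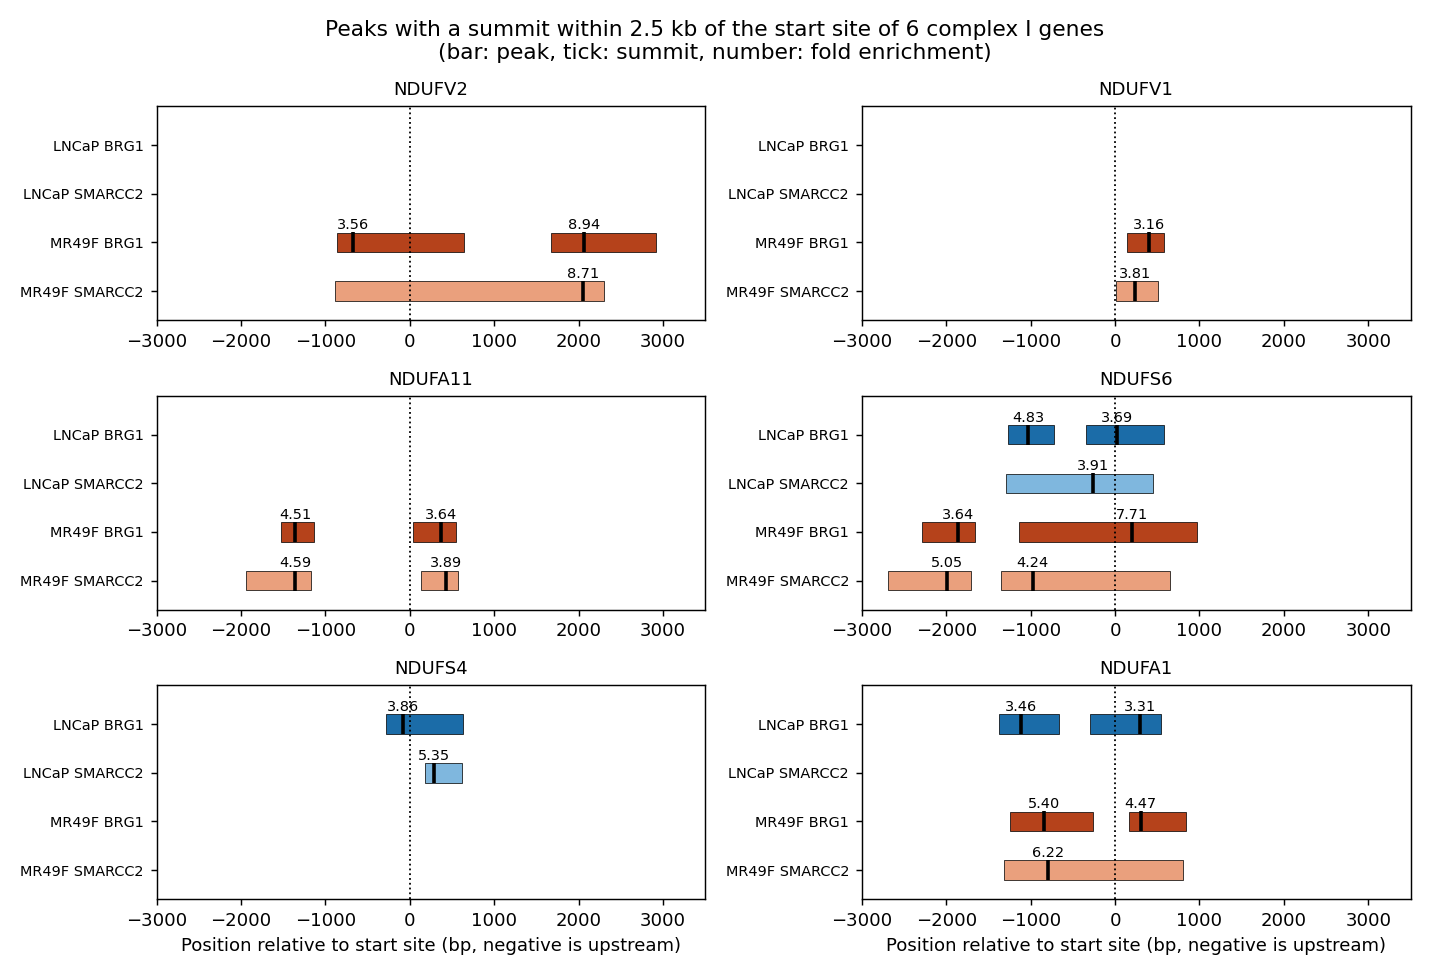
Bars are peaks with a summit within 2.5 kb of the start site of 6 complex I genes, drawn by position from the start site in bp for each of the 4 lists; ticks are summits and numbers are fold enrichments. NDUFV2, NDUFV1 and NDUFA11 show bars in the MR49F lists only, NDUFS4 shows them in the LNCaP lists only, and NDUFS6 and NDUFA1 show bars in both lines.

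Among the accessory genes of the N module, NDUFS6 and NDUFS4 encode subunits attached late in assembly. NDUFS6 was called in all 4 lists. In LNCaP BRG1 its summits lay 1028 bp upstream (fold 4.83) and 20 bp downstream (3.69), and in LNCaP SMARCC2 265 bp upstream (3.91). In MR49F BRG1 they lay 1866 bp upstream (3.64) and 196 bp downstream (7.71, −log10 q-value 19.7), and in MR49F SMARCC2 1992 bp (5.05) and 975 bp (4.24) upstream. The spans of NDUFS6 and MRPL36, a mitochondrial ribosomal protein gene, meet at the NDUFS6 start, and all these summits lay within 1156 bp of an end of MRPL36. NDUFS4, at chr5:53560639-53683338, was the 1 member with peaks at its start site with both antibodies in LNCaP and none there in MR49F. Its BRG1 summit lay 81 bp upstream (fold 3.86, −log10 q-value 6.77, 27 fragments) and its SMARCC2 summit 285 bp downstream (5.35, 9.48 and 28 fragments). Further LNCaP summits lay at 16218 bp with BRG1 and at 8737 bp with SMARCC2. MR49F had no BRG1 peak there and 1 SMARCC2 summit at 8834 bp (fold 4.34, −log10 q-value 6.17). Local background at NDUFS4 was alike in the lines, with MR49F to LNCaP ratios of 0.973 for BRG1 and 0.960 for SMARCC2.

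NDUFA12, an accessory subunit of the N module, had its peaks inside the gene, away from both ends. A LNCaP BRG1 summit 23388 bp from the start had a fold of 7.04 and a −log10 q-value of 15.8, the highest of any complex I peak in that list. An MR49F SMARCC2 summit at 23546 bp had a fold of 4.82 and a −log10 q-value of 11.2, and the other antibody gave no peak in either line. NDUFA2, at chr5:140645285-140647630, is a small accessory protein of the same module. It was called in MR49F alone, with a BRG1 summit at 277 bp (fold 3.58, −log10 q-value 6.22) and a SMARCC2 summit at 174 bp (3.10 and 3.65). NDUFA7 had a single weak peak in each LNCaP list, with −log10 q-values of 2.39 and 3.10, near CD320 and more than 13 kb from its own start. At its start, MR49F BRG1 had a summit 631 bp upstream (fold 4.96, −log10 q-value 12.8) and MR49F SMARCC2 had one 863 bp upstream (4.15 and 6.89), in a stretch shared with RPS28 and KANK3. NDUFV3 had summits 300 to 357 bp downstream of its start in every list except LNCaP SMARCC2. Over the N module as a whole, 6, 4, 7 and 9 of its 10 genes had a peak in LNCaP BRG1, LNCaP SMARCC2, MR49F BRG1 and MR49F SMARCC2, and in the Q module 4, 1, 4 and 2 of 6 did. SMARCC2 peaks were at fewer genes than BRG1 peaks in both modules, except at the N module in MR49F, with 9 genes against 7. Over all genes the SMARCC2 shares were below the BRG1 shares of the same line (44.1% and 56.1% in LNCaP, 64% and 66.3% in MR49F). No difference between modules was tested.

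The proximal membrane arm had a peak at 5, 5, 8 and 7 of its 10 genes in the same order. NDUFA11, at chr19:5891229-5903790, encodes a membrane subunit at the contact with complex III and had no LNCaP peak. It had 2 peaks in each MR49F list: BRG1 summits 374 bp downstream (fold 3.64) and 1357 bp upstream (4.51), and SMARCC2 summits 423 bp downstream (3.89) and 1361 bp upstream (4.59). Their positions differed by less than 50 bp between the antibodies. Local background at NDUFA11 was lower in MR49F, with ratios of 0.748 and 0.837, and VMAC lies close by. NDUFA13, also known as GRIM-19, had its strongest peak in LNCaP BRG1, 467 bp downstream (fold 6.46, −log10 q-value 15.3). Its MR49F summits, at 230 bp with BRG1 and 554 bp with SMARCC2, had −log10 q-values of 4.05 and 4.62. NDUFS5 had 1 peak near the same gene end in each list, with −log10 q-values of 13.9, 6.07, 16.5 and 7.97, and the BRG1 peaks stood at percentiles 85.5 and 73.9 of their lists against 41.8 and 35.7 for SMARCC2. In both lines the BRG1 peak at NDUFS5 was thus the higher-ranked one within its list.

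NDUFC1 had −log10 q-values of 9.0 in LNCaP BRG1, 4.73 in LNCaP SMARCC2, 13.9 in MR49F BRG1 and 6.93 in MR49F SMARCC2, and shares its start region with NAA15. The NDUFC2 peaks were the same peaks as those at the start of NDUFC2-KCTD14. They count once in the numbers of different peaks, but both genes count in the numbers of members with a peak. The readthrough gene owed its LNCaP BRG1 call to peaks beyond NDUFC2, the strongest with a −log10 q-value of 14.4 and 1588 bp from an end of THRSP. NDUFA9 had 1 peak in each of 3 lists, with −log10 q-values of 4.23 in LNCaP BRG1, 9.48 in LNCaP SMARCC2 and 11 in MR49F BRG1. It belongs to the Q module and binds a nucleotide cofactor. NDUFA8 was called in LNCaP SMARCC2 alone (364 bp downstream, fold 4.43), and NDUFA10 in MR49F BRG1 alone (253 bp upstream, fold 2.70).

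The distal membrane arm had a peak at 7, 3, 6 and 6 of its 12 genes, none of them called in MR49F alone with both antibodies. NDUFB1 was its 1 gene with peaks in all 4 lists. Its strongest summits had −log10 q-values of 6.14 in LNCaP BRG1, 6.95 in LNCaP SMARCC2, 19.6 in MR49F BRG1 and 19 in MR49F SMARCC2. The MR49F summits lay 483 and 866 bp upstream of the start, with folds of 7.68 and 7.76, and 220 and 603 bp from an end of CPSF2. NDUFB10 had a LNCaP SMARCC2 summit 306 bp downstream (fold 4.05), and its −log10 q-value of 10.3 was the highest of any complex I peak in that list. Its MR49F SMARCC2 summit had a higher fold, 5.05, with a −log10 q-value of 9.80, and its LNCaP BRG1 summit had 2.82 and 4.15. No MR49F BRG1 summit lay in its extended span. An MR49F BRG1 peak with its summit outside that span overlapped the LNCaP BRG1 and MR49F SMARCC2 peaks. NDUFB3 and NDUFB4 were called in LNCaP BRG1 alone, 636 bp upstream (fold 5.76) and 314 bp downstream (fold 4.07). NDUFAB1, the mitochondrial acyl carrier protein that also serves fatty acid and lipoic acid synthesis, was called in MR49F BRG1 alone, 250 bp downstream (fold 3.89, −log10 q-value 6.76).

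The X-linked members NDUFA1 and NDUFB11 stood on a local background that differed between the lines. Median background on chromosome X was 0.603 of the autosomal value in both LNCaP lists and 0.821 and 0.816 in the MR49F lists. The ratio of MR49F to LNCaP was 1.36 with BRG1 and 1.35 with SMARCC2. In LNCaP that median equals the lowest background solved in the list, 3.22 with BRG1 and 3.17 with SMARCC2. It therefore stands at a floor, which limits what the ratios say about background. NDUFA1 is required for assembly of the membrane arm. Its LNCaP BRG1 summits, 1109 bp upstream and 293 bp downstream, had folds of 3.46 and 3.31 from 14 and 16 fragments. Its MR49F BRG1 summits, 837 bp upstream and 302 bp downstream, had folds of 5.40 and 4.47 from 29 and 19 fragments, and the MR49F SMARCC2 summit 797 bp upstream had a fold of 6.22 from 31. LNCaP SMARCC2 had no peak. NDUFB11 had a LNCaP BRG1 summit at −318 bp from the start site (fold 6.22, −log10 q-value 11.6), an MR49F BRG1 summit at 233 bp (4.51 and 9.10) and MR49F SMARCC2 summits at 202 bp (3.84) and −1964 bp (4.04). The LNCaP BRG1 value was thus the higher one at NDUFB11 and the lower one at NDUFA1, and the part of the background in either was not tested.

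The 38 genes held 114 different peaks: 29, 15, 36 and 34 in the order used above. Their median −log10 q-values were 6.77, 6.72, 7.13 and 6.63, which placed the median complex I peak at percentiles 49.8, 47.3, 36.5 and 27.3 of its list. In LNCaP the complex I peaks therefore sat near the middle of their lists, and in MR49F below it. Median folds were 3.86, 3.85, 4.16 and 4.10, and median stacks were 25, 28, 23.5 and 22 fragments. Against peaks of the same kind, those within 1 kb of a gene end, member peaks had medians of 6.11, 6.93, 7.52 and 6.96, and all such peaks had 6.68, 6.06, 9.72 and 9.89. The lower standing in MR49F thus also held among gene-end peaks.

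Most complex I peaks lay at the ends of the genes. Summits within 1 kb of an end of their own gene numbered 20 of 29, 12 of 15, 26 of 36 and 22 of 34, or 80 of 114 in all (70.2%). Of all peaks in the lists, 20.2%, 19.3%, 22.5% and 19.3% lay within 1 kb of an end of any gene. The measures are unlike, because member peaks were taken only from gene spans extended by 2 kb. Those spans are short, with a median of 12268 bp, which by itself places peaks near an end. For the 33 members with a start site in the promoter table, 69 of 105 summits lay within 1 kb of it, 45 downstream and 24 upstream. The downstream share was 66.7%, 60%, 63.6% and 68.4% per list, and for all genes it was 67.6%, 73.7%, 72.8% and 76.5%. Within 100 bp of a start site lay 2 of 18 member summits in LNCaP BRG1, at NDUFS4 and NDUFS6. In the other lists it was 0 of 10, 0 of 22 and 0 of 19. Of all summits within 1 kb of a start site, 9.59%, 7.81%, 7.87% and 7.87% lay within 100 bp, so few were to be found among the members. Median distances were 316, 400, 365.5 and 554 bp, against 327, 367, 359 and 360 bp for all genes. The downstream share was lower at complex I genes in each list, and the median distance was larger in MR49F SMARCC2. Member summits were measured from a start site of their own gene, and all summits from the nearest start site of any gene. The measures are therefore unlike, and neither difference was tested.

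**Figure D3:**
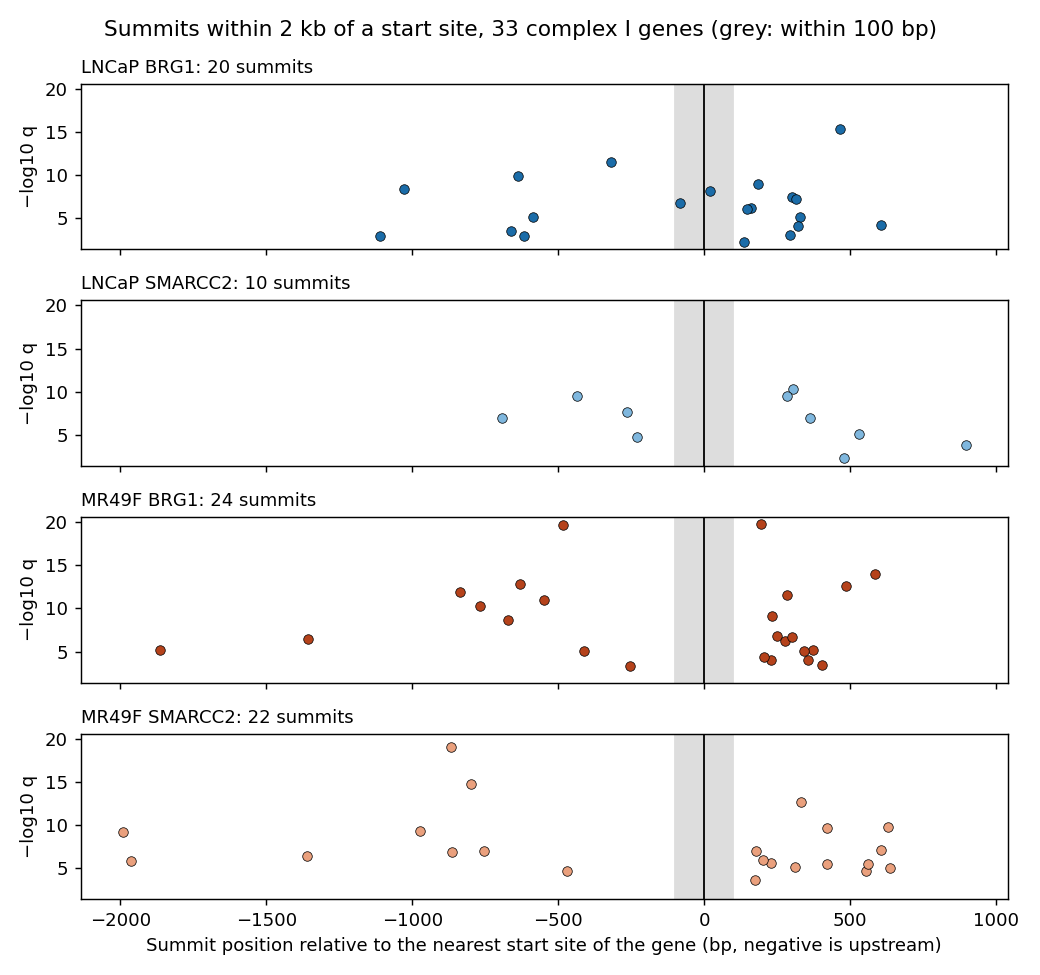
Points are member summits within 2 kb of a start site in each of the 4 lists, by position in bp (negative is upstream) and −log10 q-value of the peak; the grey band marks 100 bp on either side. The band holds 2 points, both in LNCaP BRG1, and most points lie downstream. Of all summits within 1 kb of a start site, 7.81% to 9.59% per list lay within 100 bp.

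Neighbouring genes limit what can be credited to a complex I gene. Of the 114 summits, 84 also lay within the extended span of another protein-coding gene, and 42 were closer to an end of that other gene. The peaks of NDUFS6 with MRPL36, NDUFB1 with CPSF2, NDUFS1 with EEF1B2 and NDUFB11 with RBM10 lay in such an extended span. So did the NDUFC1 peaks near its start, with NAA15. Some of these summits were closer to the neighbour's end, and others to the end of the complex I gene. The NDUFV2 summits 671 bp upstream and near 2 kb, and the NDUFS4 start-site summits, lay in no other gene's extended span.

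A complex I peak overlapped a peak of the other antibody in the same line for 11 of 29 (37.9%) LNCaP BRG1 peaks and 9 of 15 (60%) LNCaP SMARCC2 peaks. In MR49F this was so for 28 of 36 (77.8%) BRG1 peaks and 29 of 34 (85.3%) SMARCC2 peaks. For all peaks of the lists the shares were 55.3%, 80.1%, 79.8% and 75.7%, so both LNCaP shares at complex I genes were lower than in their lists. Overlap with the other line under the same antibody was found for 69.0%, 73.3%, 50% and 35.3% of complex I peaks, against 67.3%, 77.1%, 53.5% and 40.6% of all peaks. Joining peaks that shared at least 1 bp gave 48 complex I regions. Of these, 9 (18.8%) were called with both antibodies in MR49F only, against 18.3% of all 65483 regions, and 8 (16.7%) in all 4 lists, against 22.7%. Another 8 (16.7%) were called with BRG1 in both lines but with SMARCC2 in MR49F only, against 8.66%. Regions of LNCaP BRG1 alone numbered 6 (12.5%, against 10.1%), and the NDUFS4 start region was the 1 region (2.08%, against 3.67%) called with both antibodies in LNCaP only.

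Of the 38 members, 33 matched the RefSeq promoter table, and NDUFB5, NDUFB9, NDUFC2 and NDUFS5 were among those that did not. Searched on both strands over 250 bases before to 50 after the start site, the NRF1 core GCGCATGCG occurred in 4 of 33 member promoters (12.1%), against 2.76% of 15843 promoters of the same length. NRF1, nuclear respiratory factor 1, is a known activator of respiratory chain genes. The 4 were NDUFA8, NDUFB4, NDUFS6 and NDUFS7, and with any base in the middle position (GCGCANGCG, which includes the former) the count was 9 (27.3%, against 11%). The YY1 motif AAGATGGCG occurred in 5 (15.2%, against 2.69%), at NDUFA6, NDUFA7, NDUFA9, NDUFS4 and NDUFS7; at NDUFS4 and NDUFS7 the match lies outside the printed stretch. Other shares were nearer those of all promoters: 21 (63.6%, against 58.3%) for the GC box GGGCGG, 5 (15.2%, against 14.2%) for the ETS motif CCGGAAG, 2 (6.06%, against 2.56%) for TGACGTCA and 3 (9.09%, against 9.75%) for TATAAA. The CCAAT box occurred in 8 (24.2%, against 36.4%), and TCAAGGTCA, bound by estrogen-related receptors, in 0 (against 0.234%). Median G and C content was 61.3%, against 62.7% for all promoters. A peak overlapped the 250 upstream bases for 8, 3, 7 and 6 of the 33 members (24.2%, 9.09%, 21.2% and 18.2%), against 20.8%, 9.30%, 31.3% and 25.3% of all promoters. These are letter matches in a fixed window and do not show binding.

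Among all genes, 56.1%, 44.1%, 66.3% and 64% had a peak in the lists and 38.6% in all 4. Of 19 complex I assembly factors, 14, 13, 15 and 14 had a peak (73.7%, 68.4%, 78.9% and 73.7%), and 10 (52.6%) had one in all 4 lists. NDUFAF3 and ECSIT, which act early in assembly, were called with both antibodies in MR49F and neither in LNCaP (10.5%, against 9.52% of all genes). NDUFAF4 and NUBPL, which delivers iron-sulfur clusters to complex I, showed the reverse (10.5%, against 0.908% of all genes). Neither share was tested. Their strongest −log10 q-values were 21 and 12.4 for NDUFAF3 in MR49F, and 13.5 and 17.0 for NUBPL in LNCaP, in the order BRG1 and SMARCC2. Of 45 nuclear genes of complexes II to V, 26, 20, 37 and 38 had a peak (57.8%, 44.4%, 82.2% and 84.4%), 15 (33.3%) had one in all 4 lists, and 10 (22.2%, against 9.52% of all genes) were called with both antibodies in MR49F and neither in LNCaP. The reverse held for 0, against 0.908% of all genes. SDHA, the flavin subunit of complex II, was among the strongest, with −log10 q-values of 15.3, 13.6, 32.1 and 22. Of 10 regulators of mitochondrial biogenesis, 9, 7, 10 and 10 had a peak (90%, 70%, 100% and 100%). The coactivator genes PPARGC1A (15, 11.8, 50.5 and 57.3) and PPARGC1B (30.9, 22.8, 34.7 and 41.6) had the highest −log10 q-values of that group in the MR49F lists, where they stood above every complex I value. In the LNCaP lists NRF1 had 16.2 and 22.9.

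**Figure D4:**
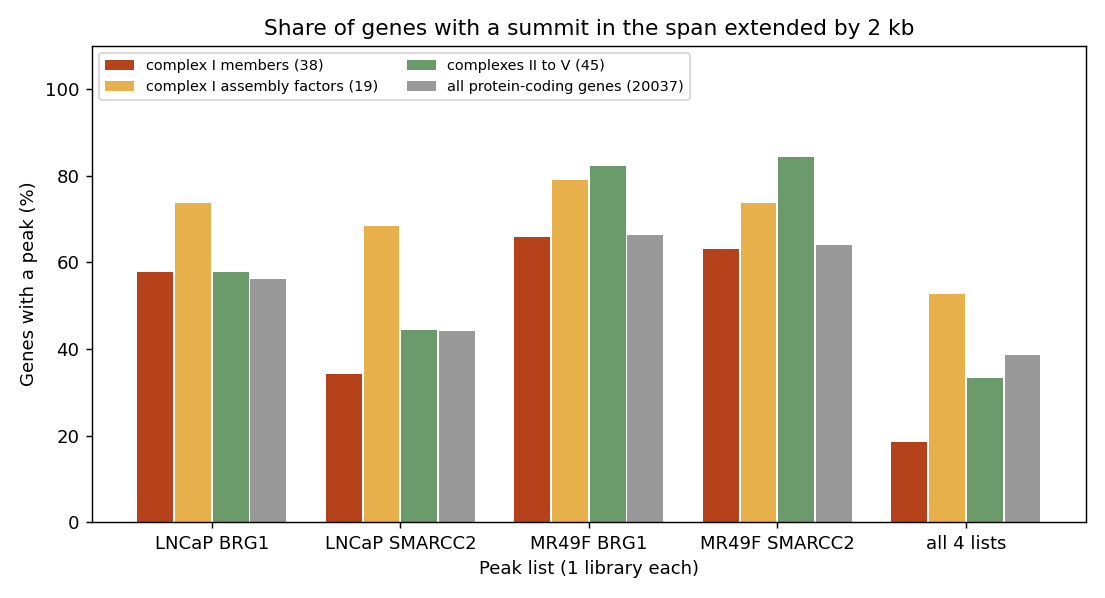
Bars give the percentage of genes with at least 1 summit in the span extended by 2 kb, for 38 complex I genes, 19 assembly factors, 45 genes of complexes II to V and all 20037 protein-coding genes, in each list and in all 4 together. The complex I bar is level with that of all genes in 3 lists and lower in LNCaP SMARCC2 and in the bar for all 4 lists (18.4% against 38.6%).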

How the data were processed

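Each deposited file is a peak list of 1 library, with no pooling of libraries. Tools in the submitters' processing notes are MACS2 2.1.0, BWA 0.7.10 and SAMtools, without role or order, and the build is hg38; the sources used here do not give the control, the duplicate handling or the read filters. Per peak, the authors deposited a fold enrichment (a ratio over local background), a −log10 p-value and a −log10 q-value, all written by their caller; they describe, rank or filter peaks inside 1 list. The deposited display score was not used, and the summit offset deposited by the authors gave the summit position.

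A summit was assigned to every gene whose RefSeq GRCh38.p14 span, extended by 2 kb, held it, so a peak can count for several genes. Overlap meant at least 1 bp. Fragments and background at a summit were solved from fold and p-value, whose Poisson relation reproduced at least 99.996% of the peaks with a −log10 p-value under 60 to within 0.002; the 95% intervals cover counting error only. Python 3.11.15, NumPy 2.4.6, pandas 2.3.3, SciPy 1.17.1 and matplotlib 3.10.9 were used, and the assignment was tested on simulated peaks. Alternatives were other spans, stricter peak thresholds and other definitions of overlap.

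The members and lists were chosen with earlier results of these data known. Named are the 7 core subunits, the 3 strongest members per list, members called with both antibodies in 1 line only or differing by 2 or more peaks with both, those without peaks, those on chromosome X, and NDUFAB1. Other genes were named after their values were seen. NDUFA4 and NDUFA4L2 carry other symbols in the RefSeq table and are not members. The values of 1 member, counted in all totals, are not reported here.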

Additional observations from a re-analysis of the deposited data

Results flagged for a closer look

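At 2 members the number of peaks moved in opposite directions with the antibodies between the lines. NDUFA12 had 1 LNCaP BRG1 peak and none in MR49F BRG1, but no LNCaP SMARCC2 peak and 1 in MR49F SMARCC2. The change from LNCaP to MR49F was thus higher by 2 peaks with SMARCC2 than with BRG1. NDUFS7 had 2 LNCaP BRG1 peaks and 1 in MR49F BRG1, against no LNCaP SMARCC2 peak and 1 in MR49F SMARCC2, which is also a difference of 2 peaks. With 1 library per line and antibody, neither difference was tested.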

How the results depend on the processing

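Of 82 recomputed values, 50 stayed close to the reported value and 32 moved; the cause was not tested. With the 10000 strongest peaks of each list, members with a peak numbered 6, 3, 4 and 1 (LNCaP BRG1, LNCaP SMARCC2, MR49F BRG1, MR49F SMARCC2), and 0 were called in all 4 lists. In that setting 1 member (NDUFV2) was called with both antibodies in MR49F and neither in LNCaP, and 1 had more MR49F and 0 more LNCaP peaks with both. Member peaks overlapping the other antibody were then 0 of 6, 0 of 3, 1 of 4 and 1 of 1. At a −log10 q-value of 5 or more, 4 members were called in all 4 lists and 0 had more LNCaP peaks with both antibodies. At that threshold 5 of 20 LNCaP BRG1 and 4 of 10 LNCaP SMARCC2 peaks overlapped the other antibody. Near a gene end lay 13 of 20 LNCaP BRG1 peaks, against 20 of 29 without the threshold. Members called in all 4 lists numbered 4 without extension of the span and 14 with 10 kb, where 3 (NDUFA11, NDUFV1 and NDUFV2) were called with both antibodies in MR49F and neither in LNCaP. With summits within 2 kb of either gene end, an alternative chosen after seeing the data, 1 member (NDUFS4) was called with both antibodies in LNCaP only. Peaks overlapping the other antibody numbered 5, 5, 18 and 18 with a reciprocal overlap of 50%, and 2, 2, 18 and 18 with summits within 200 bp. Within 500 bp of a gene end lay 7 LNCaP SMARCC2, 17 MR49F BRG1 and 8 MR49F SMARCC2 peaks.

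No paired analysis was possible because each line and antibody has 1 library and no result comes from a test. No library could be left out for the same reason. Peaks near the threshold limit all counts of genes called in 1 line only. The weakest peaks of the whole lists rested on 13 and 14 fragments in LNCaP and on 10 in MR49F. The weakest member peaks rested on 14 (BRG1) and 18 (SMARCC2) in LNCaP and on 16 in both MR49F lists. The stack at a gene without a peak is not known, so a missing LNCaP peak can stand for a stack of the same height. Spans of neighbouring genes overlap, and start sites were known for 33 of 38 members.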
